A study of Mus musculus with 11 samples.

Results

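The genes described are 45 genes of regulated cell death and of the p53 response, chosen by name: p53 regulators and targets, a pair of death-associated proteins, the BCL2 family, caspases with the apoptosome and its inhibitors, death receptors, and the machinery of necroptosis and pyroptosis. A gene was measured where the array carried a probe set annotated with its symbol and no other, and where several did, the brightest over all arrays was used. By that rule 41 of the 45 were measured, out of 22180 genes in all, and Trp53, Gdf15, Bax and Ripk1 were not analysed here. The RNA is from kidneys of 129/SvEv mice and represents the S3 proximal tubule, a straight stretch that runs in the outer medulla. The 6 wild-type arrays and the 5 arrays from mice labelled THP -/-, which lack Tamm-Horsfall protein (uromodulin, the product of Umod), were labelled from 2 ng of RNA each. Batch 1 held 5 wild-type and 3 knockout arrays and batch 2 held 1 and 2. The labels give no treatment, age or sex, and are silent on whether every array had a mouse of its own, so p-values reflect only the spread among these arrays, which may be technical.

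Apoptosis is run by caspases, proteases that are started either inside the cell, when BCL2 family proteins make the mitochondrial outer membrane leak, or from outside, when death receptors gather adaptors and caspase-8. Necroptosis and pyroptosis break the plasma membrane instead, the former through the pseudokinase MLKL and the latter through gasdermin D. The transcription factor p53 raises genes of cell cycle arrest, repair and death after DNA damage. The S3 segment is known as the part of the nephron most easily injured by ischaemia and by several toxins, and tubule cell death of these kinds is a feature of acute kidney injury. The comparison asks how these transcripts stand in S3 tubules when uromodulin, which the neighbouring thick ascending limb makes, is missing.

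Signals are log2 values, so a difference of 1 is a doubling. Umod, the deleted gene, read 5.80, 5.27, 6.20, 5.53, 5.27 and 6.74 in wild-type replicates 1 to 6 and 3.68, 4.26, 4.67, 4.55 and 5.27 in knockout replicates 1 to 5. Knockout replicate 5 thus reached the wild-type minimum. Where the probe set lies relative to the deleted part of Umod is unknown here, so its signal checks the labels only in part. Of the S3 markers 9 of 10 were measured, each above the median probe of every array, and their mean ran from 7.94 to 9.12 in wild type and from 8.67 to 9.62 in knockout. Means of the 7 markers of the earlier S1 and S2 segments ran from 5.25 to 6.39 and from 4.90 to 6.29. The 8 thick ascending limb markers averaged 5.28 to 5.98 in wild type and 5.62 to 7.36 in knockout, the highest being knockout replicate 4. In such bulk samples fewer cells of a type and less RNA per cell cannot be told apart. Array medians lay between 3.85 and 4.01, and precision is set by having 11 arrays.

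Fitted differences between the genotypes were small for all of these genes but Dap, as for most genes on the array, and none passed the test. In limma, with batch as a term and Benjamini-Hochberg adjustment over all 41345 probes, 0 of the 41 genes passed an adjusted p of 0.05, as did 0% of all probes. The smallest adjusted p among them was 0.437, for Dap. Umod, the deleted gene, did not pass either: its log2 change was -1.52 ± 0.24 (SE), with a limma adjusted p of 0.281. A gene that did not pass is therefore not shown to be unchanged. At an unadjusted p under 0.05 there were 5 genes, Diablo, Fadd, Birc2 and Dapk1 with higher and Dap with lower signal in knockout. The background at that level was 6.16% of all probes and 5.64% of all genes, 3.64% higher and 2% lower. The count was 2 without wild-type replicate 6 or without knockout replicate 1, and 3 without any of wild-type replicates 2 to 5 or knockout replicates 3 and 4. It was 4 without wild-type replicate 1 or knockout replicate 5, and 6 without knockout replicate 2. Without wild-type replicate 6, batch 2 holds knockout arrays only, so every fitted change is then that within batch 1. The median log2 change was 0.02 over the 41 genes and 0.01 over all 22180, and 23 of the 41 (56.1%) were above 0, against 53.4% of all genes. All but Dap lay within 0.5 of no change on the log2 scale, as did 21556 of all 22180 genes. The groups did not overlap for 0 of the 41 genes, where all genes gave 0.433% with knockout higher and 0.194% with knockout lower. The change had the same sign in both batches for 21 of the 41 genes, and for 12042 of all 22180, a change of 0 in only 1 batch counting as different. Signals of 25 of the genes were above the median probe on every array and those of 7 (Mdm4, Sesn1, Bmf, Casp12, Tnfrsf10b, Nlrp3 and Casp1) below it on every array. No background values were used, so those 7 were not shown to be expressed.

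**Figure D1:**
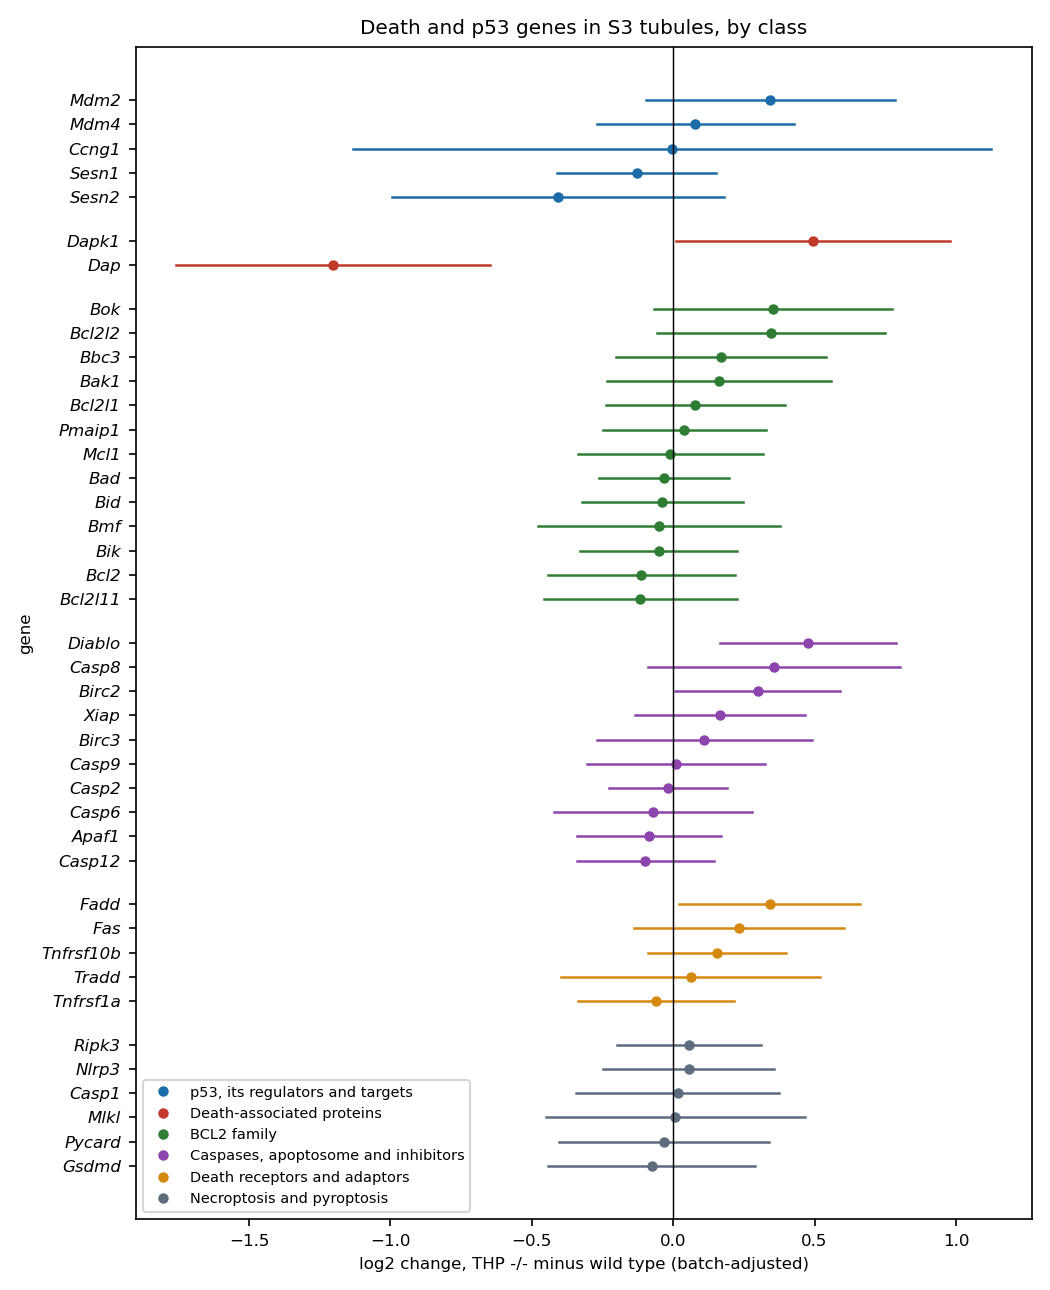
Batch-adjusted log2 change (points) with its 95% interval (lines) for the 41 measured genes, in 6 classes marked by colour, as knockout minus wild type. Dap is at -1.20 and the other genes lie between -0.41 and 0.49, most of them with intervals that cross 0.

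Of the p53 class 5 of 7 genes were measured, 2 with a change above and 3 below 0, with a median of -0.0044, which is the value of Ccng1. That median had no stable sign: it was -0.18 without knockout replicate 3 and 0.14 without knockout replicate 2. It was 0.11 without the batch term and -0.21 with a replicate block, which rests on replicates 1 to 3 of each genotype alone. The measured genes are regulators (Mdm2, Mdm4) and targets (Ccng1, Sesn1, Sesn2) of p53. The upstream sequence of 4 of the 7 genes holds a p53 half-site, the 10-base element that p53 binds in pairs. The half-site consensus, which reads the same on both strands, was searched in the 250 bases before each start site given by RefSeq (GRCm38.p6). It was present for 7 of the 40 listed genes with such a sequence (17.5%) and for 8.2% of all genes. A gene can have several windows, and per window the shares were 12.5% of 56 and 7.13% of all 32851. The listed genes were chosen by name, known p53 targets included, so no more is read from these shares of the half-site. The windows of the 3 measured genes of this class that hold it are shown 5′ to 3′ for these reference genes, since these members of the class share the element, with the half-site in capitals. A match is a description of the letters only.
Mdm2: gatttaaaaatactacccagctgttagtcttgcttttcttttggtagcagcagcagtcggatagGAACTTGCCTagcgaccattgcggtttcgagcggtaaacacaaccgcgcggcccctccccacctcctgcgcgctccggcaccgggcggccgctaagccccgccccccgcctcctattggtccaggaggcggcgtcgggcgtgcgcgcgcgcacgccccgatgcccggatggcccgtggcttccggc
Ccng1: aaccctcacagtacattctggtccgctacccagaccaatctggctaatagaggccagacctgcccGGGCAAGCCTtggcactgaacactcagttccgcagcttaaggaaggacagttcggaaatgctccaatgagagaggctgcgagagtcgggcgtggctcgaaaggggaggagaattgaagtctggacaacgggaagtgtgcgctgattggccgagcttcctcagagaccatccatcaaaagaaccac
Sesn1: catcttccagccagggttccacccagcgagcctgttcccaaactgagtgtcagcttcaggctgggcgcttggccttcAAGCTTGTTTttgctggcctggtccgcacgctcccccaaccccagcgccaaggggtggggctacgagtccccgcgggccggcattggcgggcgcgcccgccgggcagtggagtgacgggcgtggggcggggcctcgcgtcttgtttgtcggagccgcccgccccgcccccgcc
They lie at chr10:117710759-117711008 on the minus strand (Mdm2), chr11:40755287-40755536 on the minus strand (Ccng1) and chr10:41887189-41887438 on the plus strand (Sesn1). The half-sites begin 186, 185 and 173 bases before the start of each window's transcript, in the same order. Sesn1 has more than 1 such window and the half-site lies in that of the inner start, and the Ccng1 window does not begin at the outer edge of the gene.

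Mdm2, the ubiquitin ligase that removes p53 and is itself a p53 target, read 4.84, 4.33, 4.60, 4.36, 4.62 and 4.94 in wild-type replicates 1 to 6. Knockout replicates 1 to 5 read 5.35, 4.22, 5.10, 5.16 and 5.43, so 4 of them were above every wild-type array and replicate 2 was below every one. The log2 change of Mdm2 was 0.34 ± 0.20 (SE), with a 95% interval from -0.10 to 0.79 and a limma adjusted p of 0.828. Batches 1 and 2 gave 0.34 and 0.35. The Mdm2 change was 0.57 without knockout replicate 2 and 0.19 without knockout replicate 1.

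Ccng1, cyclin G1, a p53 target that brings a phosphatase to Mdm2, was picked for its spread after the values were seen. Its wild-type arrays read 8.06, 8.02, 7.78, 6.05, 7.13 and 7.43. Its knockout arrays read 6.58, 6.34, 8.47, 8.89 and 7.50, so 2 knockout arrays were above every wild-type array while the lowest array of all was wild type. Ccng1 had a batch-adjusted log2 change of -0.0044 ± 0.51 (SE). The interval spanned -1.13 to 1.12, and the batches gave -0.28 (batch 1) and 0.77 (batch 2). Ccng1 had the largest within-group SD of the 41 genes, 0.937, where their median was 0.23 and that of all genes 0.248. Its array order followed that of Mdm2 only in part. Knockout replicate 1 was high for Mdm2 and low for Ccng1, and wild-type replicate 2 was the reverse. Knockout replicate 2 was low for both genes, as was the wild-type array with the lowest Ccng1. The 2 knockout arrays above every wild-type array for Ccng1 were above every wild-type array for Mdm2 too.

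Sesn2, a sestrin that damps mTORC1 signalling under stress, read 5.10, 5.77, 6.19, 5.35, 4.75 and 5.09 in wild type and 5.09, 4.41, 5.09, 5.09 and 5.18 in knockout. Every knockout array was below the wild-type median, and knockout replicate 2 was below all wild-type arrays. The log2 change of Sesn2 was -0.41 ± 0.27 (SE), with a limma adjusted p of 0.844. It was -0.57 within batch 1, 0.04 within batch 2 and -0.22 without knockout replicate 2. When the difference between the S3 marker mean and the S1 and S2 marker mean (the segment score) was added as a covariate, a setting chosen after seeing the data, it was 0.019. Sesn1, its relative and a p53 target, was dim and had a log2 change of -0.13 ± 0.13 (SE), with the value 3.43 on 7 of the 11 arrays.

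The pair of death-associated proteins pointed in opposite directions. Dap (Entrez 223453, probe set 17310808) encodes a small proline-rich protein found in a screen for genes needed in interferon-gamma-induced death and known to hold back autophagy. Dapk1 encodes a calmodulin-regulated kinase from the same screen. Dap had the largest difference of the 41 genes, and it was already known from these arrays as one of the genes with lower knockout signal, so its place is no independent support. The 250 bases before its start, chr15:31224135-31224384 on the plus strand (GRCm38.p6, RefSeq), are shown for that gene, and the p53 half-site letters are not in this window.
Dap: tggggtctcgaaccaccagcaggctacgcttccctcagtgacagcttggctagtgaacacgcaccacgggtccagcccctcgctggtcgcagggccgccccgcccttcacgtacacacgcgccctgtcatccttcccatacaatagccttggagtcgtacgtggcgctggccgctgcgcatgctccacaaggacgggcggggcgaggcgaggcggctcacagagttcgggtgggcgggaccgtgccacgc

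Dap read 7.69, 7.83, 7.86, 7.53, 6.77 and 7.54 in wild-type replicates 1 to 6 and 6.53, 5.71, 6.05, 6.91 and 7.09 in knockout replicates 1 to 5. All 5 knockout arrays were below 5 of the 6 wild-type arrays, and wild-type replicate 5 lay among the knockout arrays. The means were 7.54 ± 0.400 (SD, n = 6) and 6.46 ± 0.578 (SD, n = 5). Dap was 2.30-fold lower in knockout after adjustment for batch, at a log2 change of -1.20 ± 0.25 (SE) with a 95% interval from -1.76 to -0.65. Its limma adjusted p was 0.437, so it did not pass over all probes. Batch 1 gave -1.44 and batch 2 gave -0.54. With any 1 array left out, the Dap change stayed between -1.02 and -1.44, the latter being the batch 1 value, reached without wild-type replicate 6.

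Low Dap and low S1 and S2 markers met on several arrays, though not on all. The arrays with the lowest means of the S1 and S2 markers were knockout replicate 2 (4.90), wild-type replicate 5 (5.25), knockout replicate 1 (5.59) and knockout replicate 3 (5.74), and the same 4 arrays had the lowest Dap values. Among the other arrays batch and genotype were mixed, and whether segment content bears on Dap was not tested. Knockout replicates 4 and 5, both of batch 2, had S1 and S2 means of 6.29 and 6.11 with Dap at 6.91 and 7.09. Wild-type replicates 1 to 4, all of batch 1, had means of 5.93, 6.08, 6.18 and 6.29 with Dap at 7.69, 7.83, 7.86 and 7.53. Replicate 4 of wild type had the lowest S3 mean of all arrays, 7.94, against 9.26 on knockout replicate 4. In batch 2 itself, wild-type replicate 6 had a mean of 6.39 with Dap at 7.54. Slc22a8, an organic anion transporter of those segments, read 8.14 in wild-type replicate 4, the highest array, 5.71 in wild-type replicate 5 and 4.28 in knockout replicate 2, the lowest. The log2 change of Slc22a8 was the largest of the 7 markers, -1.78 ± 0.44 (SE), with a limma adjusted p of 0.586. Of the 7 S1 and S2 markers 6 had a change below 0, the median of the 7 was -0.26, and Slc7a8 was at 0.43. Of the 9 measured S3 markers 9 had a change above 0. With the segment score as a covariate, the log2 change of Dap was -0.78, with a limma adjusted p of 0.938. With the thick ascending limb marker mean as a covariate it was -1.28. Both covariates were chosen after seeing the data.

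**Figure D2:**
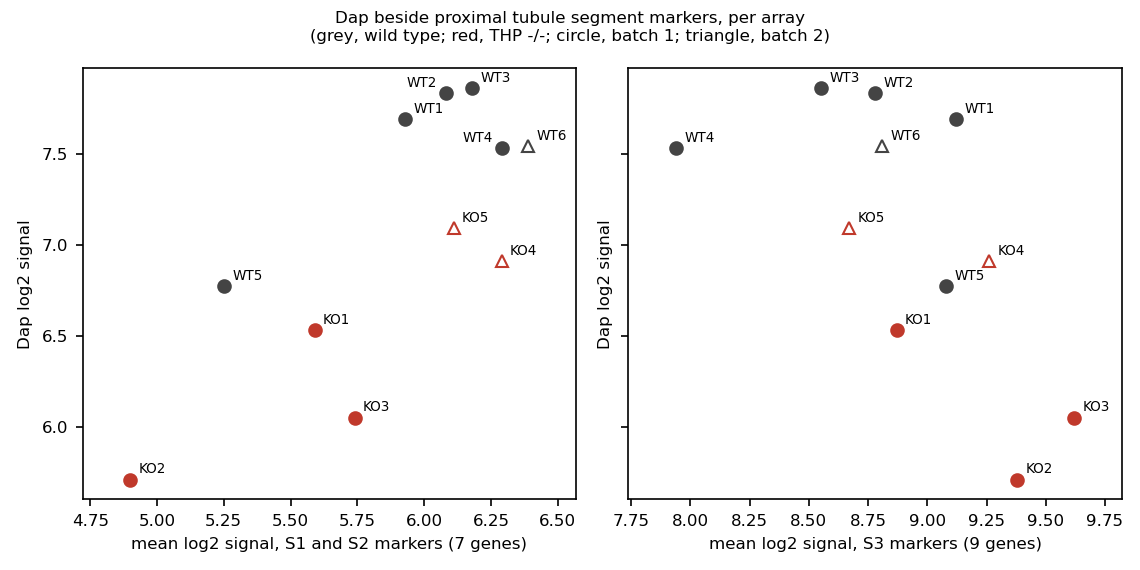
Log2 signal of Dap (vertical axis) against the mean log2 signal of the S1 and S2 markers (left) and of the S3 markers (right), 1 point per array, with genotype by colour and batch by shape. The 4 arrays with the lowest S1 and S2 means, from 4.90 to 5.74, are also the 4 with the lowest Dap signal, and wild-type replicate 5 is among them. Knockout replicates 4 and 5, both of batch 2, lie below the wild-type arrays of like S1 and S2 mean, most of which are of batch 1.

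Dapk1 read 7.19, 6.47, 6.88, 6.40, 6.90 and 6.65 in wild type and 7.14, 7.29, 7.19, 7.88 and 6.72 in knockout. Knockout replicates 2 and 4 were above every wild-type array, replicate 3 equalled the highest, and replicate 5 lay below the wild-type median. The log2 change of Dapk1 was 0.49 ± 0.22 (SE), a fold of 1.41, with a limma adjusted p of 0.809. It was 0.44 within batch 1 and 0.65 within batch 2, 0.36 without knockout replicate 4, and 0.26 with the segment score as a covariate. Knockout replicate 4, the array with the highest Dapk1, was also the array with the highest thick ascending limb markers. With the mean of the latter as a covariate the Dapk1 change was 0.27.

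**Figure D3:**
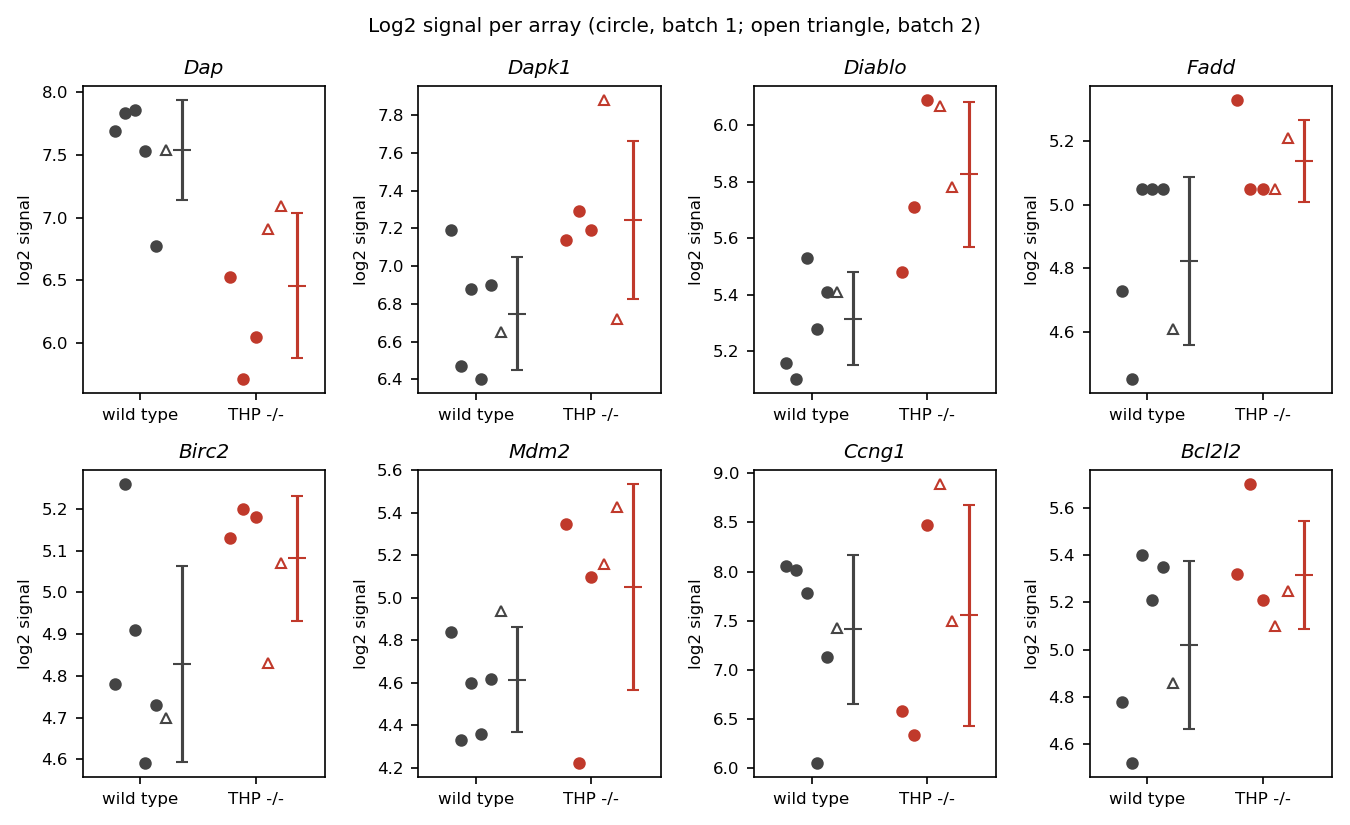
Log2 signal of 8 genes on each array, by genotype, with circles for batch 1, open triangles for batch 2 and, beside the points, the mean with its SD (n = 6 wild-type and 5 knockout arrays). Dap is lower on all knockout arrays than on 5 of the 6 wild-type arrays, Diablo is above the wild-type maximum of 5.53 on 4 of 5 knockout arrays, and Ccng1 spreads from 6.05 to 8.89 over both genotypes.

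Of the 14 BCL2 family genes 13 were measured, 6 with a change above and 7 below 0, and their median log2 change was -0.01. Effectors of the family open the mitochondrial membrane, BH3-only proteins trigger them, and the survival members hold both in check. Of the effectors Bak1 and Bok were measured, at changes of 0.16 and 0.35. The 7 BH3-only genes (Bbc3, Pmaip1, Bcl2l11, Bid, Bik, Bad and Bmf) ran from -0.12 to 0.17, with 2 above and 5 below 0. The 4 survival genes (Bcl2, Bcl2l1, Bcl2l2 and Mcl1) ran from -0.11 to 0.35, with 2 above and 2 below 0. With the segment score as a covariate the family's median was 0.10.

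The BCL2 family members with the smallest p were Bcl2l2, Bok and Bbc3, and none passed. Bcl2l2, which encodes the survival protein Bcl-w, read 4.78, 4.52, 5.40, 5.21, 5.35 and 4.86 in wild type and 5.32, 5.70, 5.21, 5.10 and 5.25 in knockout. The 3 lowest arrays were all wild type, but the other wild-type arrays lay among the knockout ones. Its log2 change was 0.35 ± 0.18 (SE), with a limma adjusted p of 0.825 and values of 0.36 and 0.32 within batches 1 and 2. Bok, an effector-like member that sits largely in the endoplasmic reticulum, read 5.92, 6.46, 6.29, 5.78, 6.39 and 6.57 in wild type and 6.46, 6.63, 6.84, 6.95 and 6.21 in knockout, with 3 knockout arrays above all wild-type arrays. The Bok change was 0.35 ± 0.19 (SE), but 0.48 within batch 1 against 0.01 within batch 2, and 0.13 with the segment score as a covariate. Bbc3, which encodes the p53-induced trigger PUMA, had wild-type values from 4.24 to 5.03 (median 4.75) and knockout values of 5.0, 5.15, 4.53, 4.75 and 4.75. The Bbc3 change was 0.17 ± 0.17 (SE), and single arrays moved it: leaving out knockout replicates 2 and 3 gave 0.069 and 0.28, and leaving out wild-type replicate 1 gave 0.089.

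The 10 genes of caspases, apoptosome and inhibitors had a median log2 change of 0.06, with 6 above and 4 below 0. Diablo and Birc2 were at an unadjusted limma p under 0.05, and none passed over all probes. The change had the same sign in both batches for 8 of the 10. Without probes dimmer than the median probe, the median over the members that remained was 0.14.

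Diablo encodes Smac, which leaves the mitochondrion and blocks the inhibitors of apoptosis so that caspases can act. Its wild-type arrays read 5.16, 5.10, 5.53, 5.28, 5.41 and 5.41 and its knockout arrays 5.48, 5.71, 6.09, 6.07 and 5.78. All 5 knockout arrays were above 5 of the 6 wild-type arrays, and knockout replicate 1 lay just under wild-type replicate 3. The means were 5.32 ± 0.165 (SD, n = 6) and 5.83 ± 0.257 (SD, n = 5). The log2 change of Diablo was 0.48 ± 0.14 (SE), a fold of 1.39, with a 95% interval from 0.17 to 0.79 and a limma adjusted p of 0.674. It was 0.46 within batch 1 and 0.52 within batch 2, and between 0.37 and 0.58 when any 1 array was left out. With the segment score or the thick ascending limb marker mean as a covariate it was 0.43 and 0.40.

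Birc2 encodes cIAP1, a ubiquitin ligase that keeps death receptor complexes from killing and is one of the proteins Smac removes. Wild-type arrays read 4.78, 5.26, 4.91, 4.59, 4.73 and 4.70 for Birc2 and knockout arrays 5.13, 5.20, 5.18, 4.83 and 5.07. Of the wild-type arrays 4 were below every knockout array, and replicate 2 was above every one. Its log2 change was 0.30 ± 0.13 (SE), with a limma adjusted p of 0.809, 0.32 within batch 1 and 0.25 within batch 2. The other inhibitors of apoptosis, Xiap and Birc3, had changes of 0.17 and 0.11, so that the 3 inhibitors were all above 0.

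Casp8, the caspase that death receptors activate, read 5.44, 5.08, 4.65, 4.69, 5.07 and 5.04 in wild type and 5.24, 4.96, 5.80, 5.69 and 5.15 in knockout. Knockout replicates 3 and 4 were above all other arrays and the rest overlapped. The Casp8 change was 0.36 ± 0.20 (SE), with a limma adjusted p of 0.826, and 0.20 without knockout replicate 3. With the segment score as a covariate the Casp8 change was 0.19. Over the 6 caspases of all classes (Casp1, Casp2, Casp6, Casp8, Casp9 and Casp12) 3 changes were above and 3 below 0, and those other than Casp8 ran from -0.10 to 0.02. Casp9, which the apoptosome activates, and Apaf1, its scaffold, are among the genes with overlapping groups. Casp1 and Casp12 were below the lower quartile of every array, and were not shown to be expressed.

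The 5 death receptor and adaptor genes had a median log2 change of 0.16, with 4 above and 1 below 0. That median was 0.014 with the segment score as a covariate and 0.061 without dim probes. Fadd, the adaptor that brings caspase-8 to Fas, was at an unadjusted limma p under 0.05 and did not pass over all probes. It read 4.73, 4.45, 5.05, 5.05, 5.05 and 4.61 in wild type and 5.33, 5.05, 5.05, 5.05 and 5.21 in knockout. The same value, 5.05, stood on 3 arrays of each genotype, so the difference rested on 3 lower wild-type and 2 higher knockout arrays. The log2 change of Fadd was 0.34 ± 0.14 (SE), with a limma adjusted p of 0.790, 0.28 within batch 1 and 0.52 within batch 2.

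Fas, the receptor of Fas ligand and a p53 target, had wild-type values from 3.33 to 4.08 (median 3.83) and knockout values of 3.91, 4.0, 4.34, 3.95 and 3.63. The Fas change was 0.23 ± 0.17 (SE), 0.014 with the segment score as a covariate, and 0.13 or 0.15 when knockout replicate 3 or wild-type replicate 4 was left out. Tnfrsf10b, the mouse receptor of the death ligand TRAIL, was dim, from 3.02 to 3.39 in wild type and from 3.07 to 3.53 in knockout, with a change of 0.16 ± 0.11 (SE). The groups overlapped for both, and for the TNF receptor Tnfrsf1a and its adaptor Tradd. On knockout replicate 5 the mean of the 5 genes was 4.08, and on the other knockout arrays it was 4.39 to 4.51.

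Necroptosis and pyroptosis genes had the narrowest range of changes of the 6 classes. Of the 7 genes 6 were measured, with 4 changes above and 2 below 0, a median log2 change of 0.01 and a range from -0.08 to 0.06. None of the 6 had the same sign in both batches, Ripk3 because its batch 2 change was 0, and batch 2 held only 1 wild-type array. Their smallest limma adjusted p was 0.952. Of these genes 1 was above the median probe on every array and 2 were below it on every array. The median SE of their changes was 0.164, against 0.155 for all genes, so the narrow range does not show steadier signals. Per array the mean of the 6 genes ran from 3.66 to 3.86 in wild type and from 3.70 to 3.86 in knockout. Macrophages and lymphocytes also express several of these genes, and the mean of their 10 markers ran from 4.08 to 4.39 and from 4.18 to 4.40.

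Ripk3, the kinase that phosphorylates MLKL, read 4.21, 4.13, 4.43, 4.37, 4.64 and 4.37 in wild type and 4.39, 4.53, 4.38, 4.37 and 4.37 in knockout. Ripk3 had a log2 change of 0.06 ± 0.12 (SE) and an interval of -0.20 to 0.31. Gsdmd, the pore-forming protein of pyroptosis, read 4.24, 4.11, 4.60, 4.38, 4.38 and 4.62 in wild type and 4.51, 4.38, 4.62, 3.88 and 3.87 in knockout. Both low knockout arrays of Gsdmd belonged to batch 2, so its change was 0.16 within batch 1 and -0.74 within batch 2, and -0.08 ± 0.17 (SE) over both. A dimmer second probe set of Gsdmd had a change of 0.10. Nlrp3, the sensor of an inflammasome, was dim, with values from 2.95 to 3.33 in wild type and from 2.93 to 3.62 in knockout, and a change of 0.05 ± 0.14 (SE) that was -0.08 without knockout replicate 3. The pseudokinase Mlkl, the adaptor Pycard and the protease Casp1 complete the class, and in each the groups overlapped.

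**Figure D4:**
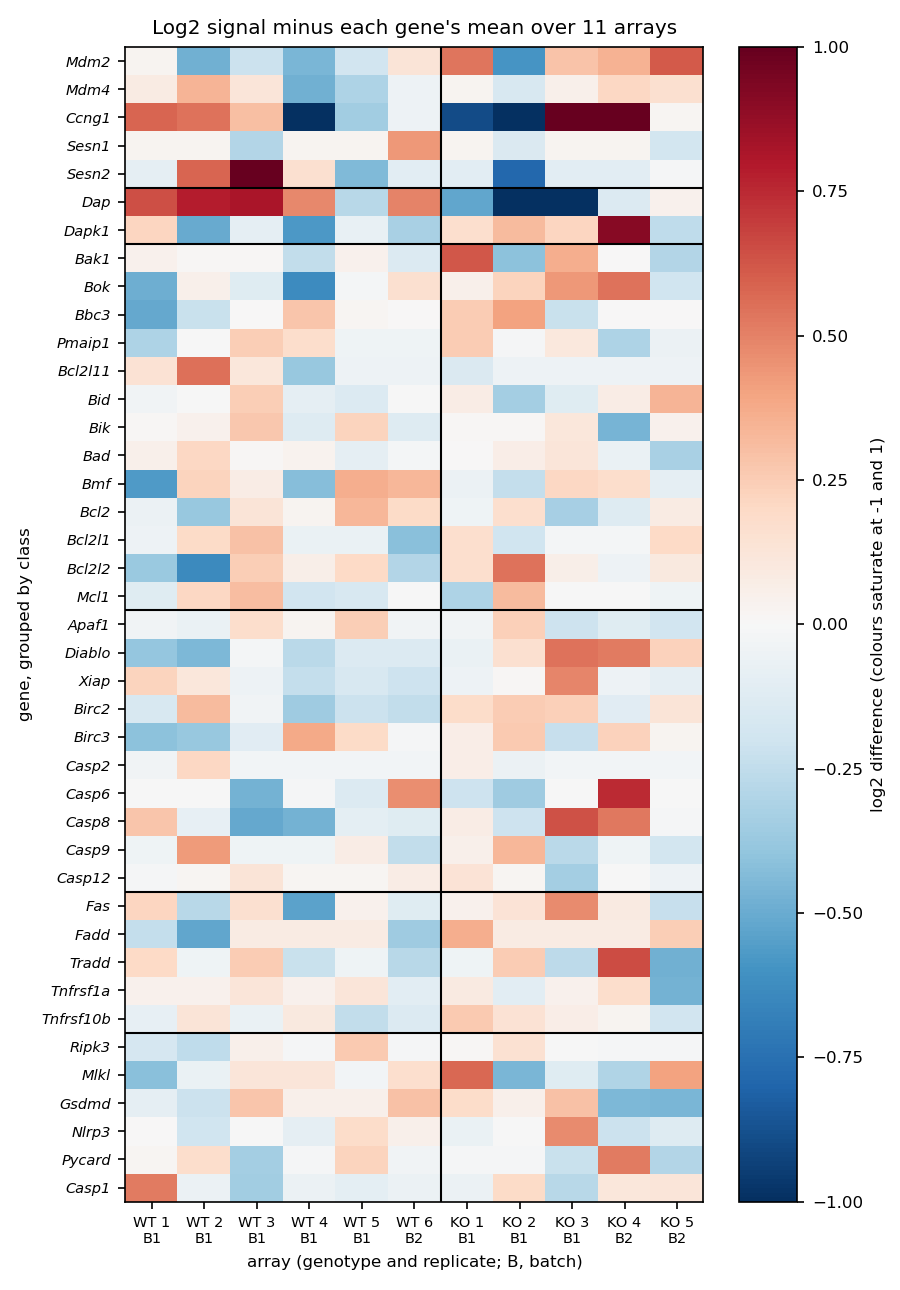
Log2 signal of the 41 genes on each of the 11 arrays, shown as the difference from the gene's mean over all arrays (red, above; blue, below; colours saturate at -1 and 1), with lines between classes and between genotypes. Dap is red on 5 of 6 wild-type arrays and blue on most knockout arrays, Ccng1 has its extremes in both genotypes, and the necroptosis and pyroptosis rows show no block by genotype.

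Some deposited values repeat across arrays. The same value to 2 decimals stood on at least 4 of the 11 arrays for 12 of the 41 genes (29.3%) and for 16.4% of all genes. It stood on 7 arrays for Sesn1 and Casp2 and on 6 for Fadd and Bcl2l11. For such genes the difference between genotypes rests on the few arrays with another value. Bcl2, Gsdmd and Mcl1 had a second probe set, and the dimmer one of Bcl2 had a log2 change of -0.29 ± 0.13 (SE) against -0.11 ± 0.15 for the brighter.

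Further genes of the same pathways, from lists of 65 symbols of which 56 were measured, were counted in the same way. Of the 56 genes 0 passed the limma adjusted p of 0.05, 2 were at an unadjusted p under 0.05 with higher signal in knockout and 0 with lower signal. Over all genes 3.64% were higher and 2% lower at that level, so the count is near the background. Their median log2 change was 0.03. Among 19 other p53 targets the median was 0.0038 and the smallest p belonged to Pidd1 (0.14 ± 0.10, SE), Tigar (0.20 ± 0.16) and Phlda3 (-0.17 ± 0.14). Tigar, which lowers glycolytic flux, read 4.10 on wild-type replicate 6 and 5.0 or more on all other arrays, so its change was -0.04 within batch 1 and 0.90 within batch 2. Among 24 other apoptosis genes the mitochondrial BCL2 relative Bcl2l13 was at 0.31 ± 0.13, the death ligand Fasl at -0.24 ± 0.13 and the BH3-only gene Hrk at 0.18 ± 0.10. Among 13 other necroptosis and pyroptosis genes the inflammasome sensor Nlrc4 was at 0.57 ± 0.21, and the cytokines Il1a and Il1b at -0.27 ± 0.16 and -0.32 ± 0.20. Nlrc4 was dim, from 2.58 to 3.13 in wild type and from 3.03 to 4.23 in knockout, and its change was 0.78 within batch 1 and -0.02 within batch 2. Without knockout replicate 1 the Nlrc4 change was 0.34 and that of Il1b -0.13. Il1b was at -0.50 when knockout replicate 2 was left out and at -0.21 when wild-type replicate 6 was, and that of Phlda3 was -0.098 without wild-type replicate 5. With the segment score as a covariate Bcl2l13 was at 0.15.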

How the data were processed

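The deposited table holds log2 signals of 11 arrays, made by the authors with Partek 6.6 and RMA per the submitters' processing notes; RMA corrects background, equalises array distributions and summarises each probe set, which can shrink shared changes. Filters, batch correction and genome build are not given in the sources used here. Gene names come from the platform annotation: 23521 of 41345 probes carried 1 symbol, 1814 several and 16010 none, and all 41 measured members matched RefSeq by Entrez number. Each probe was fitted with limma 3.58.1 in R 4.3.3 (genotype and batch as terms, no filter, 8 residual degrees of freedom), p adjusted by Benjamini-Hochberg across all probes, checked on simulated data. Plots used matplotlib 3.10.9. Genes shown per array were Umod, Mdm2 and, per class, the 3 with the smallest p (also from each list of other genes), plus Ccng1. The members, classes, lists and marker genes were chosen with earlier results of these data known. Alternatives covered batch, the replicate number, normalization, dim probes, array weights, the prior, probe set choice, and each array left out. Replicate numbers were not shown to pair the arrays.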

Additional observations from a re-analysis of the deposited data

Results flagged for a closer look

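In 16 of 116 groups examined (13.8%), the gap between 1 array and the nearest other of its genotype passed Dixon's criterion at 95%. Chance gives about 1 in 20 for continuous values, but many values here repeat to 2 decimals, which raises the ratio of gap to range, so the share cannot be set against that figure. Some gaps are small in themselves, as for Bcl2l11, Casp2, Ripk3 and Tigar in knockout. Knockout replicate 2 was the lowest knockout array for Mdm2 (4.22, nearest 5.10) and Sesn2 (4.41, nearest 5.09), and the highest for Ripk3 (4.53, nearest 4.39) and Tigar (5.17, nearest 5.0). Wild-type replicate 5 was low for Dap (6.77, nearest 7.53) and high for Phlda3 (5.08, nearest 4.62). Wild-type replicate 6 was low for Tigar (4.10, nearest 5.0) and Tnfrsf1a (4.62, nearest 4.77). Knockout replicate 1 stood apart for Bcl2l11 (3.72, all others 3.82) and Casp2 (5.37, nearest 5.28), knockout replicate 3 for Xiap (5.34, nearest 4.86) and knockout replicate 4 for Bik (4.35, nearest 4.83). Wild-type replicate 3 was high for Bid (5.21, nearest 4.96), wild-type replicate 2 for Casp2 (5.51, nearest 5.28) and wild-type replicate 1 for Casp1 (2.89, nearest 2.31). The mean of the death receptor and adaptor genes was 4.08 on knockout replicate 5 (nearest 4.39). The causes were not tested.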

How the results depend on the processing

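No member passed the limma adjusted p of 0.05 under any of the 24 other settings run. Over all probes the count was 0 in the reported fit, 3 with batch 1 alone, 1 with 1 probe set per gene and 1 with the thick ascending limb covariate. With 1 array left out it ran from 0 to 11. Leaving out knockout replicates 5 and 3 gave 11 and 2, and leaving out wild-type replicates 6 and 1 gave 3 and 1. The median log2 change of the members stayed between 0.0055 and 0.05. Class medians moved by more than the spread between arrays with the replicate number as a block (death-associated proteins -0.67, necroptosis and pyroptosis 0.15), without dim probes (caspases, apoptosome and inhibitors 0.14) and with the segment score as a covariate (BCL2 family 0.10, necroptosis and pyroptosis -0.069). The replicate block takes the change from replicates 1 to 3 only, whose arrays are all of batch 1. Same-numbered arrays of the genotypes correlated between -0.181 and 0.0118 in their deviations, which shows no pairing. These deviations were not corrected for batch, so the correlations cannot settle whether the arrays were paired. With the replicate number as a block 3 members were at an unadjusted limma p under 0.05.

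Single genes changed sign as follows, Sesn2 among them although its reported change of -0.41 is one of the larger ones. With batch 1 alone Sesn1 was at 0.0073, Gsdmd at 0.16 and Tigar at -0.043, and with the replicate block they were at 0.05, 0.19 and -0.10. Gsdmd was at 0.011 as the mean of its probe sets. Ccng1 was at 0.14 without the batch term, 0.16 with batch as a random block, 0.017 with median centring and 0.0068 with array weights. With the segment score as a covariate Sesn2 was at 0.019, Ripk3 at -0.021 and Nlrp3 at -0.060. With 1 array left out Ccng1 ran from -0.40 to 0.32, Sesn1 from -0.19 to 0.0073, Gsdmd from -0.17 to 0.16, Nlrp3 from -0.083 to 0.15 and Tigar from -0.043 to 0.28. The ends at 0.0073, 0.16, 0.15 and -0.043 came without wild-type replicate 6. They are the batch 1 values again and no separate check. The causes were not tested, batch 1 alone leaves 8 arrays, and the change with the replicate block rests on fewer still. Dim genes are limited by the unknown background.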
